A study of Mus musculus with 2 samples.

Results

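The nicotinic acetylcholine receptor subunit genes were examined in the mouse adrenal gland. The 10 genes Chrna1, Chrna3, Chrna4, Chrna5, Chrna7, Chrna9, Chrnb1, Chrnb2, Chrnb3 and Chrnb4 were matched by symbol, and all 10 were found among the 55536 genes of the gene tables. Total RNA of the gland was sequenced in 1 group of 2 adult female mice, aged 8 to 10 months, from a cross written 5xFAD X Cast in the labels. As background, 5xFAD is a transgenic model of Alzheimer's disease in which mutant human genes are driven by the neuronal Thy1 promoter, and CAST is a wild-derived strain. The labels did not say which alleles each mouse carried, the mice came from The Jackson Laboratory, and no control group was analysed here. The libraries are called mouse 1 and mouse 2 after their biological replicate numbers. One donor identifier was given for the pair, so only those numbers make them different animals, and the spread between them may be technical.

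Nicotinic receptors are pentameric cation channels opened by acetylcholine. In the adrenal medulla, acetylcholine from splanchnic nerve endings opens such channels on chromaffin cells, which depolarise and release catecholamines. Alpha subunits carry an adjacent pair of cysteines in the loop that closes over the transmitter, and most receptors combine alpha with beta subunits. The products of Chrna3 and Chrnb4 form the receptor of autonomic ganglia and chromaffin cells, those of Chrna4 and Chrnb2 the main receptor of the brain, and the product of Chrna7 can form a channel alone.

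Genes held 36558609 expected counts in the library of mouse 1 and 32192201 in that of mouse 2, where 3 counts correspond to 0.0821 and 0.0932 CPM, the counts scaled to each library's total. Levels are in TPM, the share of each transcript in its library after scaling to transcript length, which can be compared between genes. Nuclear protein-coding genes took 29.6% of all TPM in mouse 1 and 32.5% in mouse 2. All 15 chromaffin cell markers reached 1 TPM in both mice, as did all 7 markers of the steroid-producing cortex. In bulk tissue, fewer cells of a type and less RNA per cell cannot be told apart.

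Of the 10 subunit genes, 5 reached 1 TPM in both mice: Chrna4, Chrna7, Chrna3, Chrnb4 and Chrnb2. Over all genes, noncoding ones included, 13136 of 55536 did so, and 29105 had 0 counts in both mice. Among the 22015 nuclear protein-coding genes Chrnb2, the lowest of the 5, lay at percentile 48.2 (mouse 1) and 48.5 (mouse 2). The subunits summed to 22.1 TPM (mouse 1) and 24.8 TPM (mouse 2), or 75.1 and 76.7 TPM when the scale was set over nuclear protein-coding genes alone. The first 4 of these genes took most of the sum, and Chrna4, whose best known receptor is the brain type, was the highest in both mice.

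The part of the coding sequence that encodes the paired cysteines is shown because the pair defines an alpha subunit by name, the accessory Chrna5 included, and sets the alpha genes measured apart from Chrnb4 and Chrnb2. Each line gives 45 bases of the transcript with the highest mean percent of its gene, from GENCODE M21, 5′ to 3′ on the coding strand. Capitals mark the codons of the cysteine pair, or the 2 codons aligned with it in a beta gene.
Chrna4: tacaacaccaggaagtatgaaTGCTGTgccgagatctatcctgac
Chrna7: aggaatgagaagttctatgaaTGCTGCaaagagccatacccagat
Chrna3: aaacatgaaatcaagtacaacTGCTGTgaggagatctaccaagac
Chrna5: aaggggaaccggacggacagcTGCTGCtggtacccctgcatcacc
Chrnb4: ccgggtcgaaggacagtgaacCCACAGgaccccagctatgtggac
Chrnb2: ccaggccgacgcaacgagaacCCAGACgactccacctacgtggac

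In mm10 these stretches lie on the minus strand at chr2:181029260-181029304 for Chrna4, chr7:63106140-63106184 for Chrna7, chr9:55015836-55015880 for Chrna3, chr9:55035329-55035373 for Chrnb4 and chr3:89761338-89761382 for Chrnb2. The Chrna5 stretch lies on the plus strand at chr9:55004596-55004640. Each falls within 1 coding exon, which is exon 7 in Chrna7 and exon 5 in the other 5 genes. The site was chosen as the cysteine pair that the 4 alpha genes share, so their 2 cysteine codons follow from that choice. At the aligned codons Chrnb4 and Chrnb2 had 0 cysteine codons. Over the aligned codons of the whole coding sequence, Chrna4 and Chrna3 shared 64.4% of bases and Chrnb4 and Chrnb2 shared 66.7%. Chrna7 shared only 50.7% to 52.9% with the other 5 genes. For all 10 subunit genes the expected counts were whole numbers and their deposited posterior SD was 0.

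The ganglionic pair was measured first by the alpha subunit Chrna3 (ENSMUSG00000032303.7, chr9:55010111-55026562, minus strand), which contributes to acetylcholine binding. Its levels were 4.32 TPM (mouse 1) and 4.83 TPM (mouse 2), a mean of 4.58 ± 0.361 TPM (SD, n = 2), from 638 and 599 counts. Its partner Chrnb4 (ENSMUSG00000035200.7, chr9:55028154-55048779, minus strand) stood at 3.16 and 3.65 TPM, a mean of 3.41 ± 0.346 TPM, from 466 and 434 counts. Chrnb4 was below Chrna3 in both mice, and the credible intervals deposited with the tables did not overlap within either mouse. In mouse 1 they ran from 3.87 to 4.67 TPM for Chrna3 and from 2.83 to 3.39 TPM for Chrnb4. In mouse 2 they ran from 4.26 to 5.20 TPM and from 3.24 to 3.92 TPM. The level of these intervals is not stated in the file headers.

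Chrna5 (ENSMUSG00000035594.10, chr9:54980880-55007779, plus strand) encodes an accessory subunit that joins receptors with other alpha and beta subunits without forming channels of its own. Its levels were 0.22 and 0.26 TPM, a mean of 0.24 ± 0.0283 TPM. This rested on 18 and 16 counts, with exact 95% Poisson intervals of 10.7 to 28.4 and 9.15 to 26.0 counts, which like all intervals computed here cover counting error only. Both mice therefore held the accessory subunit far below its ganglionic partners.

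Chrna7 (ENSMUSG00000030525.8, chr7:63098692-63212569, minus strand), the subunit of the calcium-permeable homomeric receptor, stood at 5.61 and 5.79 TPM, a mean of 5.70 ± 0.127 TPM, from 460 and 381 counts. It exceeded Chrna3 in both mice. The deposited credible intervals of these genes were apart in mouse 1, where that of Chrna7 ran from 5.03 to 6.03 TPM, and overlapped in mouse 2, where it ran from 5.13 to 6.26 TPM. The span of Chrna7 overlaps Gm44741, a gene on the same strand with 29 and 18 counts. Strand alone cannot separate reads of these overlapping genes.

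The brain-type pair was led by Chrna4 (ENSMUSG00000027577.14, chr2:181018380-181043546, minus strand) at 6.64 and 7.92 TPM, a mean of 7.28 ± 0.905 TPM, from 1115 and 1094 counts. It lay at percentile 66.5 and 67.3 of the 22015 nuclear protein-coding genes. Chrnb2 (ENSMUSG00000027950.7, chr3:89746195-89764632, minus strand), the usual beta partner of Chrna4, stood at 1.40 and 1.63 TPM, a mean of 1.52 ± 0.163 TPM, from 353 and 332 counts. The members of this pair were thus further apart than those of the ganglionic pair. Chrnb2 overlaps Adar, an RNA editing enzyme gene on the opposite strand with 2018 and 1716 counts. The library kit was directional, but whether counting used strand is not stated, so reads of Chrnb2 and Adar may not be fully separated.

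Subunits of the muscle receptor were low or near 0. Chrnb1 (ENSMUSG00000041189.9, chr11:69784036-69795943, minus strand) stood at 0.74 and 0.57 TPM, a mean of 0.655 ± 0.120 TPM, from 43 and 33 counts. Chrna1 (ENSMUSG00000027107.3, chr2:73563215-73580338, minus strand), which binds acetylcholine at the neuromuscular junction, had 1 and 4 counts and stood at 0.01 and 0.03 TPM. The other muscle subunits, Chrnd, Chrne and Chrng, had 0 counts in both mice. A floor of 3 counts corresponds to 0.0362 TPM for Chrnd, 0.0743 TPM for Chrne and 0.0641 TPM for Chrng in mouse 1, and 0.0448, 0.0921 and 0.0795 TPM in mouse 2. The deposited credible intervals of these genes reached higher, to 0.183, 0.284 and 0.342 TPM in mouse 1 and to 0.227, 0.351 and 0.425 TPM in mouse 2.

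Markers of skeletal muscle were low or near 0 as well. None of 10 reached 1 TPM in both mice, and the list summed to 1.92 and 0.89 TPM. The highest by mean TPM, Mylpf, stood at 1.35 and 0.63 TPM from 14 and 10 counts, above Chrnb1 in both mice. Tnnt3 followed at 0.44 and 0.06 TPM, from 7 and 1 counts. The regulators Myod1 and Myog and the myosin gene Myh4 had 0 counts in both. Chrnb1 was thus detected where the muscle alpha subunit had at most 4 counts (9.89 in the second deposited quantification) and Chrnd, Chrne and Chrng had 0 in both quantifications.

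Chrnb3 (ENSMUSG00000031492.13, chr8:27368711-27399730, plus strand), an accessory subunit of brain receptors that often hold Chrna6, had 1 count in mouse 1 and 7 in mouse 2, or 0.01 and 0.10 TPM. The exact 95% Poisson intervals, 0.0253 to 5.57 and 2.81 to 14.4 counts, overlapped. Chrna6, which lies 3481 bases from Chrnb3, had 0 counts in both mice, and its floors were 0.0263 and 0.0325 TPM.

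Chrna9 (ENSMUSG00000029205.12, chr5:65934921-65977326, plus strand), the subunit of the cochlear hair cell receptor, was listed at 0 counts in both mice and at 0 in the second quantification. The floor of 3 counts corresponds to 0.119 and 0.147 TPM in the respective mice, and the deposited credible intervals ran from 0.116 to 0.735 TPM and from 0.142 to 0.907 TPM. Its usual partner Chrna10 had 0 and 3 counts. The last subunit gene outside the 10, Chrna2, had 9 and 20 counts, or 0.07 and 0.19 TPM.

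In the order of mean TPM, from Chrna4 through Chrna7, Chrna3, Chrnb4, Chrnb2, Chrnb1, Chrna5, Chrnb3 and Chrna1 to Chrna9, the values of the mice did not overlap between neighbours except for Chrnb3 and Chrna1. With 2 mice such a separation is a description of these libraries. The plot of subunit levels shows this order. In mouse 1 the deposited credible interval of Chrnb1, 0.593 to 1.34 TPM, overlapped that of Chrnb2, 1.25 to 1.54 TPM. In mouse 2 the interval of Chrnb1, 0.501 to 1.29 TPM, overlapped that of Chrna5, 0.189 to 0.619 TPM. That of Chrna5 also overlapped that of Chrnb3 in mouse 2, 0.0457 to 0.193 TPM. The intervals of Chrna9, last in the order, began at 0.116 and 0.142 TPM, above those of Chrna1, which ended at 0.0267 and 0.0651 TPM. The deposited intervals thus do not bear out the place of Chrna9.

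**Figure D1:**
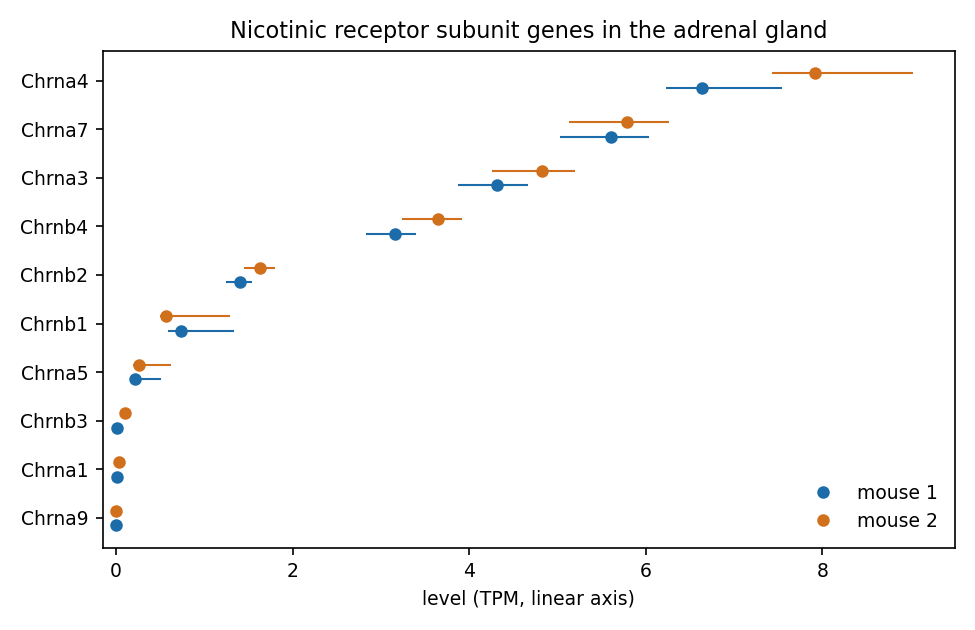
TPM of each subunit gene in mouse 1 and mouse 2 on a linear axis, with lines for the deposited credible intervals of genes with at least 10 counts on average. Chrna4, Chrna7, Chrna3, Chrnb4 and Chrnb2 lie above 1 TPM in both mice, and Chrna9 is listed at 0.

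Ratios between subunits within a library do not depend on scaling between the libraries. Chrnb4 stood at 0.731 of the Chrna3 level in TPM in mouse 1 and 0.756 in mouse 2, a mean ratio of 0.744 ± 0.0171 (SD, n = 2). Chrna5 stood at 0.0509 and 0.0538 of the Chrna3 level, a mean of 0.0524 ± 0.00205. With 18 and 16 Chrna5 counts, the counting error of this ratio is far wider than that SD. In the second deposited quantification the mean ratio of Chrna5 to Chrna3 was 0.0712. Chrnb2 stood at 0.211 and 0.206 of the Chrna4 level, a mean of 0.208 ± 0.00356, a ratio chosen after the values were seen. Chrna4 was 1.54 and 1.64 times the Chrna3 level, and Chrna7 was 1.30 and 1.20 times that level. These ratios describe RNA per length and not the make-up of receptors.

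Chrna5, Chrna3 and Chrnb4 lie side by side on chromosome 9. Chrna5 is read from the plus strand toward Chrna3, which is read from the minus strand, and 2331 bases separate their ends. Chrna3 and Chrnb4 are read in the same direction with 1591 bases between them. The neighbours on the Chrna5 side include Psma4, a proteasome subunit, Hykk, a hydroxylysine kinase, and Ireb2, an iron-responsive RNA-binding protein. AY074887, which lies next to Hykk and overlaps the start of Psma4 on the opposite strand, had 0 counts in both mice. Psma4 stood at 48.7 and 54.7 TPM, Hykk at 0.74 and 0.85 TPM and Ireb2 at 12.7 and 15.3 TPM. Levels along the cluster thus ran from 0 at AY074887 and below 1 TPM at Chrna5 and Hykk to the higher values at Psma4, with Chrna3 and Chrnb4 between them. Gm47877, an antisense gene within Chrnb4, had 0 counts in both mice.

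**Figure D2:**
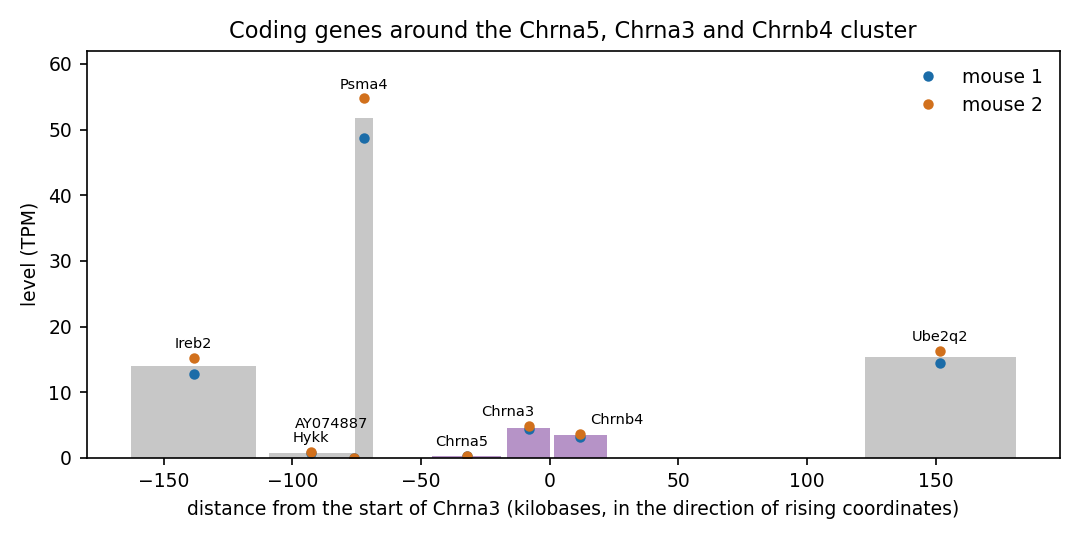
Mean TPM of protein-coding genes around the Chrna5, Chrna3 and Chrnb4 cluster on a linear axis against distance from the start of Chrna3 in kilobases. Bars span each gene and dots are the 2 mice, and Chrna5, at a mean of 0.24 TPM, lies far below Chrna3 and Chrnb4.

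Transcript use was taken from each transcript's percent of its gene in the deposited tables. Of the 7 subunit genes with at least 10 counts on average, 6 had 1 transcript at 50% or more in both mice. Chrnb4 has only the transcript Chrnb4-201, at 100% in both mice. Chrna4-201 took 91.1% and 93.2%, a mean of 92.2% ± 1.48 (SD, n = 2), and the noncoding Chrna4-204 took 7.95% and 6.78%. Chrna7-201 took 95.1% and 96.8% of its gene, and Chrnb2-201 took 91.6% and 96.6%. The 4 highest genes other than Chrna3 were thus each led by 1 coding transcript at over 91% in both mice, which for Chrna4 and Chrnb2 is not the one with the longest annotated coding sequence.

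Chrna3 was the exception among the abundant subunits. Its longer form Chrna3-201 took 67.5% in mouse 1 and 75% in mouse 2, a mean of 71.2% ± 5.33, from 505 and 507 counts. Chrna3-202 took 32.5% and 25.0%, from 133 and 91.9 counts. The second quantification put Chrna3-202 at 25.2% and 19.7%, below the first in both mice. The forms share 1386 coding bases. Chrna3-201 then continues into exon 6 for 126 coding bases, and Chrna3-202 reads from exon 5 into the following intron for 42. In total RNA, reads of unspliced Chrna3 RNA in that intron cannot be told apart from Chrna3-202. Their part in its share was not tested.

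The differing ends of the coding sequence are shown because they separate these forms. Each line starts with the last 30 shared coding bases in lower case, and capitals mark the bases of that form alone through its stop codon. The capitals lie at chr9:55012801-55012929 for Chrna3-201 and at chr9:55015092-55015136 for Chrna3-202, both on the minus strand of mm10.
Chrna3-201: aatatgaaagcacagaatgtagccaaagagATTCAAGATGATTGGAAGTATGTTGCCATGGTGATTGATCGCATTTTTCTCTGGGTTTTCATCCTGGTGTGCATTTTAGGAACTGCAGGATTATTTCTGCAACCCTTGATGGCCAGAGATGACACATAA
Chrna3-202: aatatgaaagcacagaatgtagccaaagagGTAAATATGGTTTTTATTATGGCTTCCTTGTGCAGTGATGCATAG

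In nicotinic subunits the last membrane-spanning segment lies close to the end of the protein, which is the stretch encoded by exon 6 in Chrna3-201. Chrna3-202 lacks that exon and was the lower of the forms in both mice.

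Transcript shares of the low genes differed more between the mice in the first quantification. Chrnb1-201, the coding form, took 60.2% and 79.3%, a mean of 69.7% ± 13.5, and noncoding transcripts took the remaining 39.8% and 20.7%. Those noncoding transcripts are annotated as retaining an intron, so unspliced RNA cannot be told apart from them either. In the second quantification Chrnb1-201 took 77.7% and 76.3%, so the difference between the mice was not seen there. Chrna5-202 took 43.4% and 64.3% while Chrna5-204, which lacks coding exons 2, 3 and 4 of Chrna5-202, took 56.6% and 35.7%. The leading Chrna5 transcript thus differed between the mice, from 6.28 and 8.92 counts for Chrna5-202 and 11.7 and 7.08 for Chrna5-204. In the second quantification Chrna5-204 led in both mice, at 80.2% and 83.5%.

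**Figure D3:**
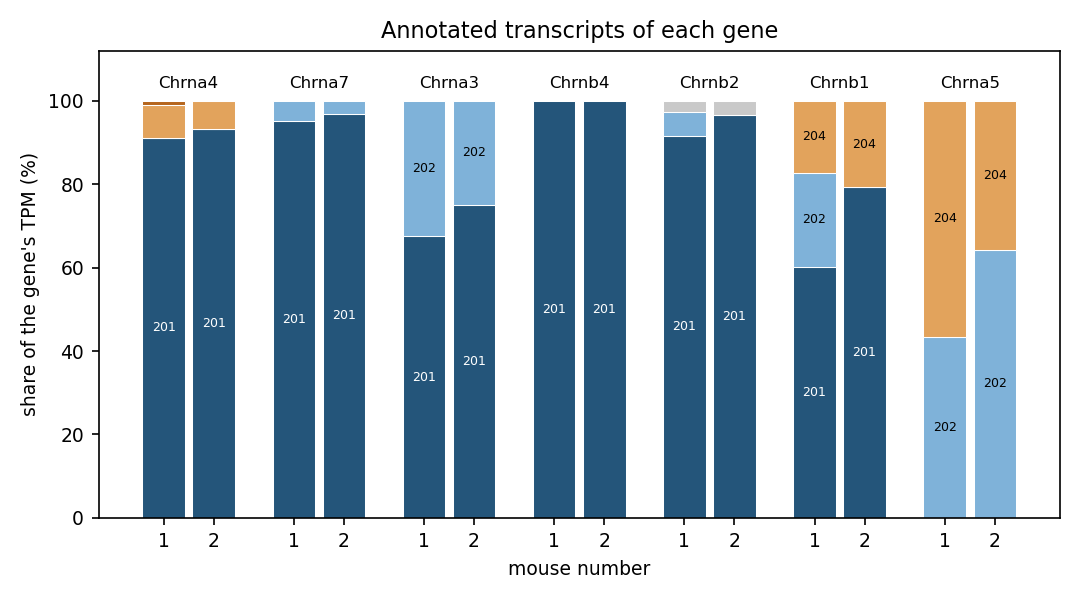
Percent of each subunit gene taken by each annotated transcript in mouse 1 and mouse 2, for the 7 genes with at least 10 counts on average, with numbers inside the bars naming the transcript (201 for Chrna3-201). Chrna3, Chrnb1 and Chrna5 are divided between transcripts, and the other 4 are led by 1.

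Between the mice, none of the 7 subunit genes that averaged 10 counts or more was 2-fold apart, and none differed beyond counting noise. The comparison used counts scaled by edgeR's TMM method and an exact two-sided binomial test with Benjamini-Hochberg adjustment over 17666 genes. It compares these 2 libraries and not conditions. Of all genes tested, 1.15% were at least 2-fold higher in mouse 2, 1.81% were at least 2-fold lower and 21.3% passed the binomial test at an adjusted p of 0.05. None of the 7 had an unadjusted p under 0.05. Their median log2 ratio of mouse 2 to mouse 1 was 0.03, with 4 above 0 and 3 below (5 and 2 with total count scaling), against -0.001 for all genes tested.

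Chrna4 had the lowest p of the 7, with a log2 ratio of 0.11 (95% Clopper-Pearson interval -0.01 to 0.23) and an adjusted p of 0.228 by the exact binomial test. With total count scaling its ratio was 0.16 and its adjusted p 0.0463, which passes the threshold. That scaling raises the median of all genes from -0.001 to 0.05. Over the 8 settings tried its adjusted p ran from 0.0463 to 0.351. Under this test the call for Chrna4 therefore depends on how the libraries are scaled.

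Chrna3 and Chrnb4 gave log2 ratios of 0.04 (-0.12 to 0.21) and 0.03 (-0.16 to 0.22), and Chrnb2 gave 0.05 (-0.17 to 0.27). A 2-fold difference in either direction lay outside the counting interval of each of these 3 genes. Chrna7 gave -0.14 (-0.34 to 0.06). The intervals of Chrnb1, -0.95 to 0.44 around -0.23, and of Chrna5, -1.10 to 1.02 around -0.03, were wide. For Chrna5 a 2-fold difference in either direction lay within the interval, so these counts cannot exclude such a difference. Chrnb3, Chrna1 and Chrna9 had too few counts for the test.

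**Figure D4:**
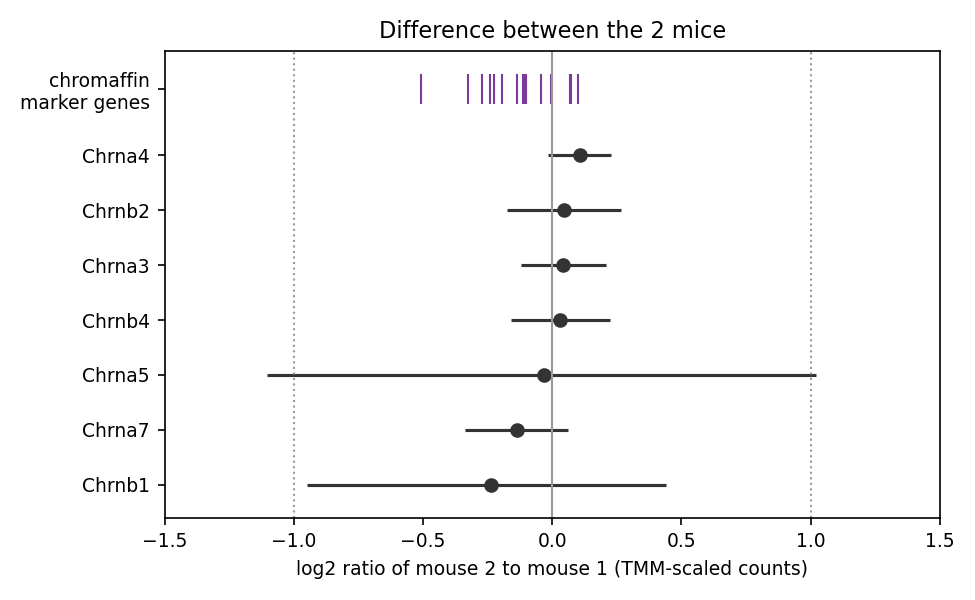
Log2 ratio of mouse 2 to mouse 1 for the 7 subunit genes tested, with bars for 95% Clopper-Pearson intervals, ticks for the 15 chromaffin cell markers and dotted lines at a 2-fold difference. All 7 points lie inside the dotted lines, and the interval of Chrna5 reaches past both.

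Chromaffin cell markers that differed beyond counting noise did so in 1 direction. Of 15 markers 8 were lower in mouse 2 beyond counting noise and 0 were higher, with a median log2 ratio of -0.11. Of all 17666 genes tested, 1936 were lower beyond counting noise and 1835 were higher. Pnmt, which makes adrenaline from noradrenaline, gave -0.51, and the granule protein gene Chga gave -0.27 from 53733 and 40577 counts. At so many counts a small ratio passes this test. Summed over the list, the markers held 2841 and 2683 TPM. The subunit sum was 22.1 and 24.8 TPM in the same mice, or 75.1 and 76.7 TPM over nuclear protein-coding genes alone. TPM and scaled counts did not always move together, as the marker Th stood at 240 and 252 TPM with a log2 ratio of -0.11. The part of chromaffin cell content in the subunit levels was not tested.

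The proteins that assemble nicotinic receptors or bind to them were represented by 16 genes, of which 10 reached 1 TPM in both mice. The highest were Ly6e, Tmem35a and Ric3. Ly6e encodes a membrane-anchored protein of the family of lynx-like receptor modulators and stood at 117 and 131 TPM. Tmem35a encodes NACHO, a chaperone needed for assembly of Chrna7 and other neuronal receptors, and stood at 114 and 120 TPM. Ric3, another receptor chaperone, stood at 20.1 and 21.1 TPM. Each of these exceeded every receptor subunit in TPM in both mice.

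Of the 12 genes of this list that were tested, 0 were 2-fold apart and 3 differed beyond counting noise. Tmem35a was lower in mouse 2 (log2 ratio -0.10, adjusted p = 0.000277 by the exact binomial test), as was Ric3 (-0.11, adjusted p = 0.0321). With total count scaling neither passed, at adjusted p = 0.109 for Tmem35a and 0.306 for Ric3, and in the second quantification Ric3 did not pass (adjusted p = 0.199). Lynx1, which encodes a brake on nicotinic receptors, was higher (0.25, adjusted p = 1.27e-07) and was named after its values were seen. The share of 3 in 12 compares with 21.3% of all genes, and the median log2 ratio of the list was 0.02.

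Genes of acetylcholine supply were at or near 0. Chat, which makes acetylcholine, and Slc18a3, which loads it into vesicles, had 0 counts in both mice, and the choline transporter gene Slc5a7 had 1 and 0. As background, the cell bodies of splanchnic neurons lie in the spinal cord. Ache, which degrades acetylcholine, stood at 3.34 and 3.24 TPM and was the only gene of the 7 in this list to reach 1 TPM in both mice. Of the 3 tested, 1 differed beyond counting noise, against 21.3% of all genes tested, and the median log2 ratio was -0.20.

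Other cell types that can carry nicotinic receptors were present by their markers. Of 9 neuron markers 5 reached 1 TPM in both mice, of 8 Schwann and sustentacular cell markers 4 did, and of 8 macrophage markers all did. Summed levels were 23.2 and 26.6 TPM for neurons, 10.1 and 12.9 TPM for Schwann and sustentacular cells and 109 and 126 TPM for macrophages, in mouse 1 and mouse 2. Some of these neuron markers, such as the exocytosis gene Snap25, are also expressed in chromaffin cells. How far each cell type contributed to a subunit's level was not tested.

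A second deposited quantification, made from the reads and a transcript index, was summed to genes. The same 7 subunit genes all lay within 2-fold between the quantifications. Of 17656 genes, 1.27% had a second value at least 2-fold above the first and 2.93% had one at least 2-fold below it. Chrna4 stood at 5.84 and 7.12 TPM in it, Chrna7 at 5.15 and 5.45 TPM, Chrna3 at 3.76 and 4.29 TPM, Chrnb4 at 2.84 and 3.37 TPM and Chrnb2 at 1.21 and 1.36 TPM. All 5 were lower than in the first quantification in both mice. Chrna5 was higher, at 0.265 and 0.309 TPM. Chrnb3, with 1 and 7 counts in the first, had 11.5 and 9.17 estimated counts in the second. In TPM it stood at 0.0703 and 0.0882 there, against 0.01 and 0.10 in the first, so mouse 2 was higher per length by less and lower in counts. Chrna1 had 9.89 and 6.51 estimated counts and 0.0452 and 0.0365 TPM in the second, above its first values in both mice.

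**Figure D5:**
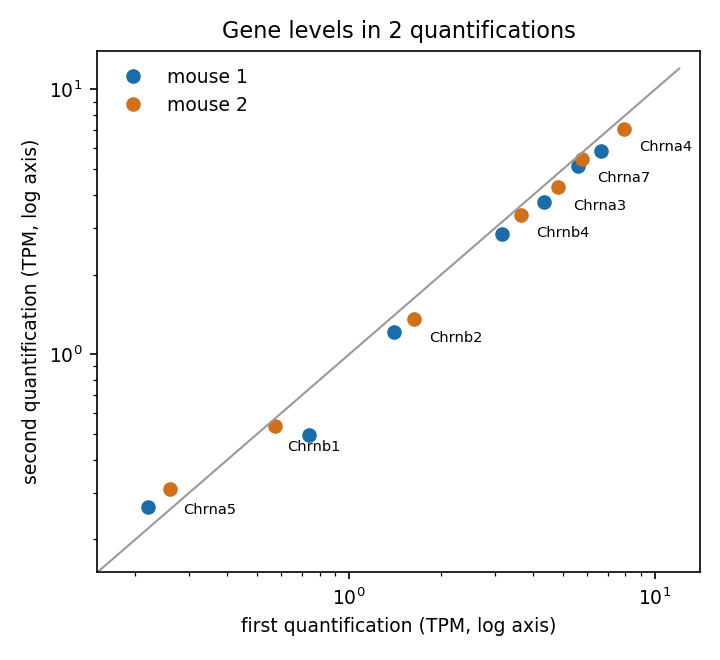
TPM of the subunit genes in the second quantification against the first, on log axes, with a point for each mouse and a line of equal values. The 5 genes above 1 TPM lie just below the line and Chrna5 lies above it.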

How the data were processed

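Adrenal total RNA came from 2 mice forming 1 group. Each directional library took 300 ng of RNA, with ribosomal RNA reduced and ERCC RNA added, per the labels. Per the file headers and deposited text files, tables use mm10 and GENCODE M21. The aligner's name and those of the quantifiers were not given in the sources used here. The authors deposited expected counts, TPM and FPKM per gene and transcript, estimated from transcriptome alignments, and the percent of its gene for each transcript. The deposited credible interval of TPM has bounds given as a signal of no stated level. A second deposited table holds estimated counts and TPM made from reads and a transcript index. CAST alleles were placed on another strain's reference, and the effect was not tested.

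Rows without a gene name were kept out of tests and library sizes. The ERCC rows held 0.502% and 0.526% of counts in mouse 1 and mouse 2, and 26248 numbered rows held 1.84e-05% and 8.53e-06%. The second table lacked 86 genes.

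Levels are means and SDs of deposited TPM. Log2 ratios used TMM (edgeR 4.0.16, R 4.3.3), a prior count of 2 and genes averaging 10 counts or more. Expected counts were rounded for the exact binomial test with Benjamini-Hochberg adjustment at 0.05 and for Poisson intervals. This test assumes counting noise only. Quantifications were compared on TPM plus 0.1. Floors are 3 counts. Intervals cover counting error only, since without molecular identifiers a read is not a counted molecule. The ratio and test were tested on simulated data that held counting noise only and were scaled by library totals. Such data cannot show how the test behaves with TMM scaling or with variation beyond counting noise. Alternatives were total count, median-of-ratios (DESeq2 1.42.0) and ERCC scaling, other filters, thresholds, prior counts and pseudocounts, FPKM, rescaled TPM, the second quantification and each mouse alone. All 10 members and the 6 other subunit genes were named. Of each other list at most the 3 genes of highest mean TPM were to be named, and any further gene was picked with its values known. Members and lists were chosen with earlier results of these data known. Python 3.11.15 with scipy 1.17.1, pandas 2.3.3, numpy 2.4.6 and Biopython 1.88 served the remaining steps.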

Additional observations from a re-analysis of the deposited data

Results flagged for a closer look

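The row for phiX, a sequencing control genome outside the genes compared, held 354 counts in mouse 1 and 238 counts in mouse 2, above the 3 counts that a count of 0 allows. No control sample was analysed here against which to set these values, and they enter no subunit's level. The group held 2 mice, so no search for a sample far from the others was made.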

How the results depend on the processing

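The count of subunit genes at 1 TPM in both mice was 5 in the second quantification, in FPKM and with each mouse alone, and 4 to 6 under rescaling or other thresholds. The count of members 2-fold apart between the mice was 0, and 2 without a count filter, where Chrnb3 and Chrna1 enter with 1 count each in mouse 1. The count beyond counting noise was 0, and 1 with total count scaling, which was Chrna4. In the second quantification, the ratio of Chrnb4 to Chrna3 was 0.77 and that of Chrna5 to Chrna3 was 0.0712, and in counts not divided by length the latter was 0.0275. The 7 tested members' log2 ratios stayed within their counting intervals with ERCC, median-of-ratios or total count scaling, a prior count of 0.5 and the second quantification. The second quantification moved the level of 6 of 10 members by more than 1 SD, 2 up and 4 down, and rescaling to coding genes raised 9. No paired analysis was possible because there is 1 group. Depth limits Chrna5, Chrnb3, Chrna1 and Chrna9, with at most 18 counts in a library.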

Other observations

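Muscarinic receptors, the G-protein-coupled class of acetylcholine receptor, lay in the range of the lower nicotinic subunits. The highest, Chrm4, stood at 0.60 and 1.59 TPM, and Chrm3 at 0.51 and 1.09 TPM. None of 5 reached 1 TPM in both mice, and Chrm5 had 0 counts. Of the 3 tested, 2 were higher in mouse 2 beyond counting noise by the exact binomial test, as were 1835 of all 17666 genes tested. Chrm4 had 33 counts in mouse 1 and 70 in mouse 2 (log2 ratio 1.17, adjusted p = 0.000472), and Chrm3 had 66 and 104 (0.77, adjusted p = 0.0042). Chrm1, with 75 and 72 counts, gave 0.07. Bche, which encodes butyrylcholinesterase, an enzyme that also degrades acetylcholine, had 157 and 255 counts (0.83, adjusted p = 1.82e-07). These genes were named after their values were seen.

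Adipocyte markers were also higher in mouse 2. Of 7, 6 passed the binomial test, against 21.3% of all genes tested. All 7 had ratios above 0, and the list summed to 1234 and 1987 TPM, with a median log2 ratio of 0.61. The part of fat in the samples in the values of Chrm3, Chrm4 and Bche was not tested. Chrna2, a subunit gene outside the 10, was also over 2-fold higher in mouse 2 (log2 ratio 1.12, 95% interval 0.09 to 2.61) from 9 and 20 counts, with an adjusted p of 0.0958 by the exact binomial test. In the second quantification it had 24 and 34 counts and a log2 ratio of 0.60.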
